A study of Mus musculus with 6 samples.

Results

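The variation between stable clones of the same construct was measured in 6 clones of NIH3T3, an immortalized line of fibroblasts from embryos of NIH Swiss mice. All 6 arrays of the series were used, and each clone was compared only with the other clones of its own group. The 3 control clones, ΔccdB-1, ΔccdB-2 and ΔccdB-3, were stably transfected with the pEF-DEST51 vector after removal of its ccdB gene, and carried no FEAT insert. The 3 FEAT clones, FEAT-3, FEAT-15 and FEAT-20, carried human FEAT (METTL13, a methyltransferase of the elongation factor eEF1A) in pEF-DEST51 under the elongation factor 1 alpha promoter. The FEAT clones were picked as colonies after 7 days in 10 µg/ml blasticidin S and were kept because they overexpressed the FEAT protein. How the control lines were selected, and whether each came from a single colony, is not known here. Each clone is a line of its own and was read on 1 one-colour Illumina bead array, so a difference between clones also holds the variation between cultures and arrays, which was not measured separately.

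A stable clone is grown from a single cell in which the plasmid has integrated. Clones of one transfection share the plasmid but not its place in the genome, and each starts from the expression state and the chromosomes of its founding cell. Genes that are silenced or imprinted, genes near the plasmid and genes carried in an unequal number of copies are textbook examples of genes that differ between clones.

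Genes were chosen by their own spread. Scaled intensities with a mean over 200 across the 6 arrays were put on the log2 scale, the brightest probe stood for its gene, and the range (highest clone minus lowest clone) was taken within each group. A gene with a range of 1 or more, which is a 2-fold distance between the highest and the lowest clone, was called variable. The filter kept 11817 of 45281 probes and 7131 of 19057 named genes. The same values that chose the genes describe them, so no test is given for any range, count or level, and FEAT clones were not tested against control clones.

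The 6 arrays had deposited mean intensities between 616 (FEAT-3) and 735 (FEAT-20), which the scaling brought to 680. Between 37.0% (FEAT-3) and 42.9% (FEAT-20) of the probes exceeded their array's own background limit, set at scaled intensities of 89.4 to 109. Of 16 fibroblast markers, 15 passed the filter and were above background in all 6 clones, among them the collagen gene Col1a1 (3434 to 8621) and Vim, which encodes vimentin (21502 to 24763). Of a short list of Y-linked genes and Xist, with 8 genes on the array, 0 passed the filter. Markers of 7 other cell types passed in 1 to 5 genes per list, with levels given below where they varied.

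Among the control clones 109 genes were variable (1.53% of the genes kept), and among the FEAT clones 124 (1.74%). Both groups shared 33 of these (0.463% of the genes kept), which is 30.3% of the control genes and 26.6% of the FEAT genes. The typical gene differed little between clones: the median range was 0.30 among control clones and 0.27 among FEAT clones, and 95% of genes stayed below 0.75 and 0.74. The widest ranges were 5.17 among control clones and 4.56 among FEAT clones, and a range of 2 or more was reached by 13 and 21 genes. The genes that varied among control clones had a median range of 0.65 among FEAT clones, and the FEAT genes had a median range of 0.64 among control clones. Across all genes the ranges in the 2 groups had a Spearman correlation of 0.18, over genes that share arrays and are not independent replicates.

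**Figure D1:**
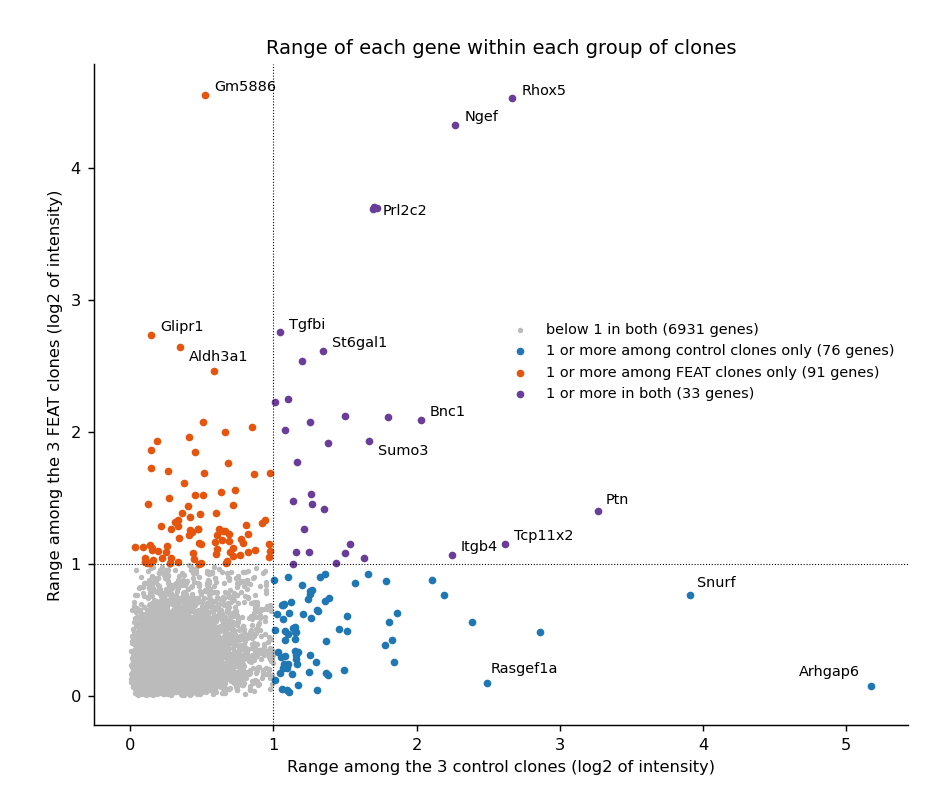
Range of each of 7131 genes among the 3 control clones (horizontal axis) against its range among the 3 FEAT clones (vertical axis), both in log2 of scaled intensity, 1 point per gene, with dotted lines at 1. Most genes lie below 1 on both axes, 76 genes exceed 1 only among control clones, 91 only among FEAT clones and 33 in both, and Arhgap6 and Gm5886 lie farthest out along single axes.

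The genes nearest the threshold among control clones were Crybg1 (range 1.007), Triqk (1.013) and Pqlc3 (1.015) inside it and 2310039H08Rik (0.996), Tab3 (0.995) and Steap2 (0.993) outside it. Among FEAT clones Etv5 (1.000), Ddit3 (1.002) and Frat2 (1.006) lay just inside and Mt2 (0.997), Lrrfip1 (0.995) and Rbmx (0.982) just outside. Of 1433 kept probes with no single gene name, 34 (2.37%) varied among control clones and 22 (1.54%) among FEAT clones. The share of variable genes was lower among bright genes: between intensities of 200 and 500 it was 2.41% among control clones and 2.22% among FEAT clones, and above 2000 it was 0.622% and 0.957%.

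The clones did not contribute equally. ΔccdB-2 stood 1 or more above both other control clones in 23 genes (0.323% of the genes kept) and below both in 16 (0.224%). Counted over any distance, ΔccdB-2 was above both in 33.6% of all genes and below both in 33.3%. ΔccdB-1 stood as far apart in 2 genes above (0.0280%) and 0 below (0%), and ΔccdB-3 in 6 above (0.0841%) and 1 below (0.0140%). ΔccdB-1 and ΔccdB-3 differed 2-fold or more in 13 genes, while ΔccdB-2 differed from ΔccdB-1 in 63 and from ΔccdB-3 in 81. Without ΔccdB-2 the count of variable control genes was therefore 13, and the count shared with the FEAT clones was 9.

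The FEAT clones were more evenly spread but differed in direction. FEAT-15 stood above both others in 21 genes (0.294%) and below both in 2 (0.0280%). FEAT-20 had 3 genes above (0.0421%) and 22 below (0.309%). FEAT-3 had 7 above and 7 below (0.0982% each). On unscaled values, where FEAT-3 is the dimmest array and FEAT-20 the brightest, FEAT-20 had 12 below and FEAT-3 had 15, so which clone was most often low depends on the scaling. The pairs of FEAT clones differed 2-fold or more in 58 to 66 genes, and between FEAT-15 and FEAT-20 60 of the 66 were higher in FEAT-15.

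**Figure D2:**
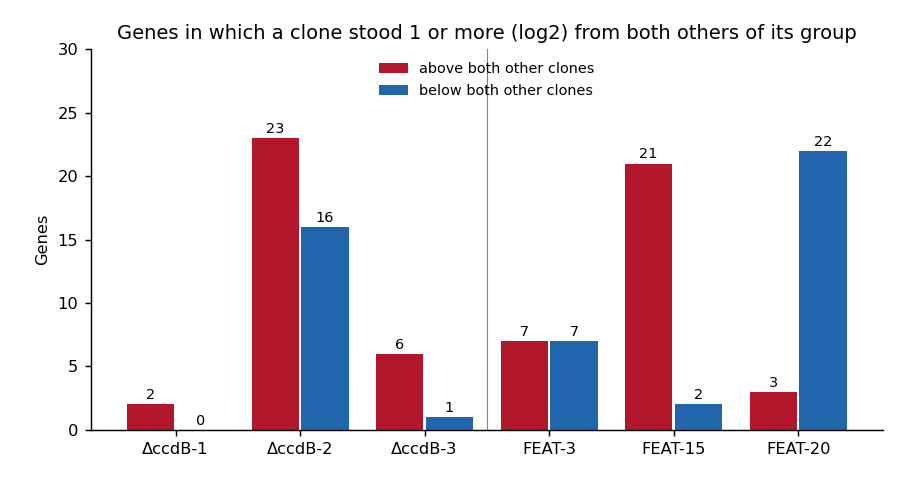
Number of genes (vertical axis, of 7131) in which each clone stood 1 or more on the log2 scale above (red) or below (blue) both other clones of its group. ΔccdB-2 holds 39 of the 48 such genes of the control clones, FEAT-15 stands mostly above and FEAT-20 mostly below the other FEAT clones.

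The widest range among control clones belonged to Arhgap6, an X-linked gene for a GTPase-activating protein. Its scaled intensity was 69.9 in ΔccdB-1, 2519 in ΔccdB-2 and 90.4 in ΔccdB-3, and 73.7, 70.0 and 72.4 in FEAT-3, FEAT-15 and FEAT-20. On this probe it was above background in ΔccdB-2 alone of the 6 clones, at least 27.1-fold above ΔccdB-1. Its other kept probe read 96.3, 2009 and 96.9 in the control clones, with ΔccdB-2 again far above, but was just above background on 4 of the other arrays.

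Snurf, the upstream reading frame of the imprinted Snurf-Snrpn transcript on chromosome 7, read 83.3, 956 and 63.8 in ΔccdB-1, ΔccdB-2 and ΔccdB-3. On both kept probes it was at background in ΔccdB-1 and ΔccdB-3, and on the brighter one at least 9.96-fold above ΔccdB-3 in ΔccdB-2. In FEAT-3, FEAT-15 and FEAT-20 it read 649, 809 and 1106, so that ΔccdB-2 lay inside the span of the FEAT clones. Rasgef1a, which encodes an exchange factor of Ras family GTPases, was likewise at background in ΔccdB-1 and ΔccdB-3, with 77.0, 379 and 67.2 in the control clones and 430, 410 and 438 in the FEAT clones. Ptn, the gene of the heparin-binding growth factor pleiotrophin, read 832, 4378 and 454 in the control clones and 990, 2615 and 1695 in the FEAT clones. ΔccdB-2 was the highest of the 6 clones in Ptn, and the ranges of 3.27 and 1.40 made it variable in both groups.

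Rhox5, a homeobox gene of the X-linked reproductive cluster that is best known from testis and placenta, had the largest smaller range of the genes variable in both groups. Its single kept probe read 400 in ΔccdB-1, 2190 in ΔccdB-2 and 345 in ΔccdB-3. In the FEAT clones it read 791 in FEAT-3, 8135 in FEAT-15 and 18261 in FEAT-20. All 6 values were above background, and the highest clone stood 6.35-fold above the lowest among control clones and 23.1-fold among FEAT clones.

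The sequence upstream of 1 RefSeq transcript start (250 bases, assembly GRCm38.p6) is shown for each of Rhox5, Snurf, Ptn and Rasgef1a. They were picked since they had some of the widest ranges among control clones and their upstream sequences differ in CpG content. CpG dinucleotides, the sites of DNA methylation, are in capitals, and the strand is that of the gene. The windows are chrX:37754358-37754607 (plus strand) for Rhox5, chr7:60005200-60005449 (minus strand) for Snurf, chr6:36810180-36810429 (minus strand) for Ptn and chr6:118011255-118011504 (plus strand) for Rasgef1a.
Rhox5: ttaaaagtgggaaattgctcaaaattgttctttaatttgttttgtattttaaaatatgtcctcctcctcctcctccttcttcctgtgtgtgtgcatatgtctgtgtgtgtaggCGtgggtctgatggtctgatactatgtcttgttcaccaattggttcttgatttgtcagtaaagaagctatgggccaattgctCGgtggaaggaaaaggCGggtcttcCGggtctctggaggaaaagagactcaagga
Snurf: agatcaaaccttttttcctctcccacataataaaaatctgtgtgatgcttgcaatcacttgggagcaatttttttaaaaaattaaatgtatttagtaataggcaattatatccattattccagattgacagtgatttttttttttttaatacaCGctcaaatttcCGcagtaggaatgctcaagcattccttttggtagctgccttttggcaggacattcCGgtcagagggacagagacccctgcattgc
Ptn: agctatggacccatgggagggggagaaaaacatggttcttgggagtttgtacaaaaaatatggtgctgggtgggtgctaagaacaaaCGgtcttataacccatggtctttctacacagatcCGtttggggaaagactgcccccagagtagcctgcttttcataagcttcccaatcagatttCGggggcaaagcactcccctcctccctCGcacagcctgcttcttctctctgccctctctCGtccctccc
Rasgef1a: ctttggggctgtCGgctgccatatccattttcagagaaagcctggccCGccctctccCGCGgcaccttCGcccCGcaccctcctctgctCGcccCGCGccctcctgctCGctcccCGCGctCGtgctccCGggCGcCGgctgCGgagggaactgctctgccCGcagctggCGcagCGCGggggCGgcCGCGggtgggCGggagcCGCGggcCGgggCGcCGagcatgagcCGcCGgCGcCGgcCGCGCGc
Rhox5 has 4 CpGs in this window, Snurf 3, Ptn 5 and Rasgef1a 37. Rasgef1a has 2 RefSeq start windows, of which 1 is shown, and the other genes have 1 each. A start other than the one shown would have another upstream sequence, and neither methylation nor start sites were measured.

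Other genes with wide ranges among control clones were also mostly set apart in ΔccdB-2. C1qtnf3, which encodes a secreted relative of the complement component C1q, read 247, 1108 and 212. Tcp11x2, an X-linked relative of a testis gene, read 143, 799 and 130, and C130026I21Rik on chromosome 1 read 128, 896 and 123. Aif1l, an actin-binding protein gene, read 150, 577 and 126. In each of these ΔccdB-1 and ΔccdB-3 lay close together and ΔccdB-2 far above.

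ΔccdB-2 was the low clone in another group of genes. Itgb4, the integrin beta subunit of the laminin receptor of epithelial cells, read 1790 in ΔccdB-1, 378 in ΔccdB-2 and 1526 in ΔccdB-3. Acot1, a cytosolic acyl-CoA thioesterase gene, read 2809, 782 and 2322, and Cyp1b1, a cytochrome P450 gene, 461, 129 and 458. Pxdc1, on chromosome 13, read 1405, 403 and 1330. Osbpl6, a gene of the oxysterol-binding protein family, and Bnc1, the gene of the zinc finger protein basonuclin, fell to background in ΔccdB-2 (71.7 and 82.5) against 258 and 309, and 251 and 337, in the other control clones.

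The other control clones were set apart in few genes. In ΔccdB-1 these were Dbp, a transcription factor of the circadian clock output (3582 against 1520 in ΔccdB-2 and 1482 in ΔccdB-3), and Nrep (719 against 232 and 348). In ΔccdB-3 they were the proliferin genes Prl2c2, Prl2c3 and Prl2c4, Notch4 (1102 against 477 and 389), Sema5a, a semaphorin gene (446 against 195 and 178), and Btc, the EGF family ligand betacellulin (425 against 178 and 197). The gene below both others in ΔccdB-3 was Dcn, the small proteoglycan decorin, at 683 against 1502 and 2027.

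**Figure D3:**
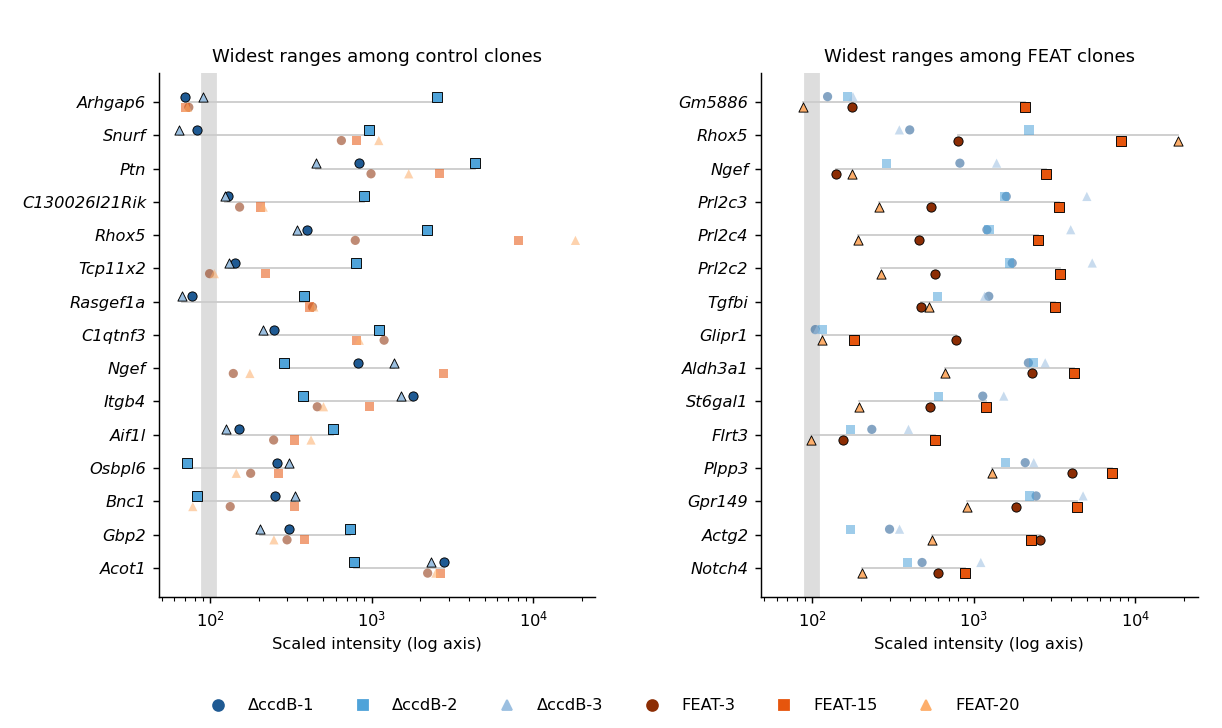
Scaled intensity on a log axis of the 15 genes with the widest range among control clones (left) and among FEAT clones (right), 1 symbol per clone. Outlined symbols joined by a line are the group that the genes were ranked in, pale symbols are the other group, and the grey band spans the background limits of the arrays (89.4 to 109). On the left ΔccdB-2 stands alone at one end in most genes, and on the right FEAT-15 is at the upper end in most.

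Among FEAT clones the widest range was that of Gm5886, annotated by RefSeq as a transcribed pseudogene, which read 175 in FEAT-3, 2065 in FEAT-15 and 87.6 in FEAT-20. The clone FEAT-20 was at background, and FEAT-15 stood at least 23.1-fold above it. The control clones read 124, 164 and 178, below FEAT-15 and with a range of 0.52. Ngef, the gene of the exchange factor ephexin that acts downstream of Eph receptors, read 139, 2792 and 176 in FEAT-3, FEAT-15 and FEAT-20. It also varied among control clones (818, 286 and 1381), with both extremes of the 6 clones, 139 and 2792, in FEAT clones. Its other kept probe gave 111, 1339 and 116 in the FEAT clones.

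The proliferin genes, which encode secreted relatives of prolactin, moved as a unit. Prl2c2 read 571 in FEAT-3, 3422 in FEAT-15 and 265 in FEAT-20, and 1725, 1664 and 5397 in ΔccdB-1, ΔccdB-2 and ΔccdB-3. Prl2c3 and Prl2c4 had ranges of 3.70 each among FEAT clones, against 3.69 for Prl2c2. The 3 genes are near-identical copies, and their probes may read each other's transcripts, so they are uncertain as separate genes. FEAT-15 was the highest FEAT clone and ΔccdB-3 the highest control clone on all 3.

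FEAT-15 was the high clone for several secreted and surface proteins. Tgfbi, a matrix protein induced by TGF-beta, read 467, 3159 and 524 in FEAT-3, FEAT-15 and FEAT-20. Igfbp4, which binds insulin-like growth factors, read 1000, 3270 and 1493, and Slpi, a secreted protease inhibitor, 165, 505 and 140. Flrt3, a leucine-rich repeat transmembrane protein gene, read 154, 571 and 98.2, and Btc 152, 478 and 113. FEAT-15 was below both others in Hmox1, the gene of heme oxygenase (1640, 599 and 1512), and in Ces2g, a carboxylesterase gene (2393, 1053 and 2358).

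FEAT-20 was the low clone for genes of several kinds. Aldh3a1, an aldehyde dehydrogenase gene, read 2301, 4144 and 660 in FEAT-3, FEAT-15 and FEAT-20. St6gal1, which adds terminal sialic acid, read 536, 1192 and 194, and Plpp3, a phosphatase of lysophosphatidic acid, 4033, 7144 and 1292. Sox4, a transcription factor gene, read 572, 836 and 209, and Cyba, a subunit of the NADPH oxidase, 556, 891 and 211. In these genes FEAT-15 was the highest and FEAT-3 lay between. FEAT-20 was above both others in Rhox5, in Insl6, a gene of the relaxin family (326, 360 and 888), and in Wnk4, a kinase gene (227, 196 and 493).

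FEAT-3 was the high clone of Glipr1, a secreted protein of the CAP family, at 770 against 182 and 115. The 3 control clones read 104, 115 and 107, close to the background limit. Acta1, the actin of skeletal muscle, read 593, 212 and 184, and Fhl1, a LIM domain protein gene, 4622, 1967 and 1763. Bhlhb9, on chromosome X, was low in FEAT-3 at 231 against 797 and 901, and Car13, a carbonic anhydrase gene, at 1526 against 3526 and 3804.

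Some genes had their extremes in clones of both groups. Sumo3, the gene of a ubiquitin-like modifier, read 361, 1147 and 380 in ΔccdB-1, ΔccdB-2 and ΔccdB-3 and 1046, 371 and 274 in FEAT-3, FEAT-15 and FEAT-20. ΔccdB-2 and FEAT-3 were thus high and the other 4 clones low. The other kept probe of Sumo3 gave 300, 917 and 261, then 945, 301 and 271, the same split. Bnc1 was at background in ΔccdB-2 and FEAT-20 (82.5 and 78.0), at 133 in FEAT-3 and at 251 to 337 in the rest. Pxdc1 was lowest in the same pair, at 403 and 240, and graded from 714 to 1405 in the others. These genes were singled out after their values were seen.

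Probes of the same gene mostly told the same story. Of the 109 variable control genes, 30 had another kept probe, and in 26 of them (86.7%) it put the same clone highest and the same clone lowest. Of the 124 variable FEAT genes, 35 had another kept probe, and 30 (85.7%) matched. Over all 2386 genes with another probe the shares were 49.3% and 47.2%. The other probe itself had a range of 1 or more in 21 of 30 and 21 of 35 genes. Rrbp1, a ribosome-binding protein of the endoplasmic reticulum, was one that did not: 1285, 2673 and 1322 on the brightest probe and 806, 1026 and 982 on the other.

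Gene lists of pathways and cell types were read for how many of their kept genes varied, beside 1.53% and 1.74% over all genes. Of 43 lists, 18 held no variable gene in either group. In the cell cycle lists 0 of 31 kept genes of G1/S and DNA replication and 0 of 21 of G2/M and mitosis varied in either group. The same count of 0 held for 39 ribosomal protein genes, 26 proteasome subunits, 44 respiratory chain subunits, 23 genes of the unfolded protein response and heat shock, and 20 HOX and limb patterning genes. The HOX count among FEAT clones was 2 on unscaled values. At the shares over all genes, lists of these sizes would hold few variable genes or none, so these counts alone do not set them apart. Proteasome subunits had median ranges of 0.15 among control clones and 0.16 among FEAT clones, and ribosomal protein genes 0.15 and 0.27. The widest range of any proteasome subunit was 0.39 and 0.40.

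Matrix genes varied in both groups. Of 30 matrix glycoprotein and proteoglycan genes kept, 6 varied among control clones and 5 among FEAT clones, with median ranges of 0.48 and 0.52, beside 0.30 and 0.27 over all genes. The control genes were Dcn, Ogn, Ccn5, Prelp, Nid1 and Tgfbi, and the FEAT genes Tgfbi, Prelp, Tnc, Ecm1 and Nid1. Prelp, a leucine-rich proteoglycan gene, read 2907, 1298 and 2544 in the control clones and 1848, 2604 and 763 in the FEAT clones. Tnc, which encodes tenascin C, read 253, 394 and 159 in the FEAT clones. FEAT-20 was the lowest FEAT clone in Prelp, Tnc, Ecm1 and Nid1, and the list averaged 0.27 below the group mean there. The counts were 1 without ΔccdB-2 among control clones and 1 without FEAT-20 among FEAT clones. Of 14 collagen genes kept, 0 varied in either group, with a widest range of 0.94, and 1 varied among FEAT clones with quantile normalization or normexp.

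A few contractile genes were lower in FEAT-20 than in the other FEAT clones. Actg2, the smooth muscle actin of the gut, read 2577 in FEAT-3, 2243 in FEAT-15 and 550 in FEAT-20. Tagln, the gene of the actin-binding protein transgelin, read 489, 426 and 187, and Myl9, a myosin regulatory light chain gene, 1409, 1257 and 602. The control clones read 300, 171 and 346 in Actg2, 104, 146 and 126 in Tagln and 448, 317 and 512 in Myl9. All of these were below FEAT-20, and Actg2 varied among control clones too (range 1.02). FEAT-3 and FEAT-15 lay close together and FEAT-20 apart in all 3 genes. These were the genes variable among FEAT clones of 17 kept, and FEAT-20 averaged 0.30 below the group mean over the list. Without FEAT-20 the count was 0. Acta2, the most used marker of this class, did not follow: it read 37843, 31251 and 30308.

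Of 16 interferon response genes, 3 varied among control clones and 0 among FEAT clones, where the count was 2 on unscaled values. Gbp2, an interferon-induced GTPase gene, read 308, 737 and 202 in ΔccdB-1, ΔccdB-2 and ΔccdB-3, and Isg15, a ubiquitin-like interferon-induced gene, 228, 368 and 154. Ifi27l2a was highest in ΔccdB-1 instead (903, 518 and 378). Of 11 chemokine and cytokine genes, 0 varied among control clones and 3 among FEAT clones, and FEAT-15 was the highest clone in all 3. Ccl2, the chemokine that draws monocytes, read 152, 425 and 111 in FEAT-3, FEAT-15 and FEAT-20, its neighbour Ccl7 5878, 10830 and 4491, and Il11, a cytokine of the interleukin 6 family, 366, 471 and 210. Without FEAT-15 the chemokine count was 0, and without ΔccdB-2 or without ΔccdB-3 the interferon count was 1. The difference between the groups in these counts was not tested.

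Growth factor and signalling genes varied in both groups. Of 17 growth factors and binding proteins, 3 varied among control clones (Ptn, Gdnf and Angptl4) and 3 among FEAT clones (Igfbp4, Ptn and Gdnf). Gdnf, a neurotrophic factor gene, read 1244, 813 and 2297 in the control clones and 1244, 1241 and 588 in the FEAT clones. Of 11 MAPK feedback genes, 2 varied in each group (1 among FEAT clones with quantile normalization or the mean of probes), and the median range among control clones, 0.75, was the widest of the signalling lists. Dusp4, a phosphatase of MAP kinases, read 823, 663 and 1499, and Etv5, an ETS transcription factor gene, 371, 435 and 816, and ΔccdB-3 averaged 0.37 above the control mean over the list. Notch4 read 477, 389 and 1102 in the control clones and 599, 885 and 203 in the FEAT clones. Receptor tyrosine kinases (19 kept) and Wnt genes (7 kept) held 0 variable genes in either group. On unscaled values 1 receptor gene varied among control clones and 1 Wnt gene among FEAT clones, and with normexp 1 receptor gene among control clones.

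Stress and metabolic lists gave small sets. Of 32 NRF2, glutathione and antioxidant genes, 4 varied in each group, and 7 among FEAT clones with normexp. Gsta1, Gsta2 and Mgst1, which encode glutathione transferases, were highest in ΔccdB-2, with Gsta1 at 225, 612 and 321. Gsta3 was highest in ΔccdB-3 (203, 344 and 430), and in the FEAT clones it read 847, 402 and 209. Gsta1 and Gsta2 are close relatives whose probes may share transcripts. Of 23 ATF4 and amino acid response genes, 1 varied among control clones (range 1.15) and 3 among FEAT clones. In the FEAT clones Trib3, a pseudokinase gene, read 3985, 1524 and 2675. Ddit3, the gene of the transcription factor CHOP, read 1692, 845 and 1285, and its other kept probe had a range of 0.68. Vldlr, a lipoprotein receptor gene, read 1152, 665 and 317. FEAT-15 averaged 0.23 below the group mean over this list, and FEAT-3 0.24 above it. Among 16 cholesterol synthesis genes Mvd varied (2260, 1070 and 1369), and ΔccdB-1 averaged 0.27 above the control mean.

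Marker lists of other cell types were mostly below the filter. Of 13 macrophage and blood cell markers on the array 3 passed, and the lysozyme genes Lyz1 (905, 1612 and 625) and Lyz2 (341, 694 and 246) varied among control clones, highest in ΔccdB-2. Their probes may share transcripts, and 3 or 4 of the 13 markers were above background in each clone, with Ptprc, Csf1r and Adgre1 not among them. Acta1 was the variable gene of the skeletal muscle list, of which 5 of 23 passed, and 8 or 9 of 23 were above background in each clone. Nes, an intermediate filament gene of neural progenitors, read 204, 127 and 401, while 1 of 14 neural and glial markers passed. The summed level of the macrophage list was 2454 to 3881 in the control clones and 2614 to 2847 in the FEAT clones, and its part in the variable genes was not tested.

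Medians over whole chromosomes were shifted in some clones. Each gene was taken as the log2 difference between a clone and the mean of the other 2 clones of its group, and medians were taken over the kept genes of a chromosome. In ΔccdB-2 chromosome 17 had a median of -0.35 (0.79-fold over 355 genes), and ΔccdB-2 was below both other control clones in 289 of them (81.4%), beside 33.3% over all genes. Chromosomes 12 (-0.25) and 13 (-0.23) were low in the same clone, and chromosomes X (0.17) and 14 (0.17) were high. On chromosome X the rise lay mostly in the stretches given below. In FEAT-20 chromosome 19 had a median of 0.45 (1.37-fold over 285 genes), with 260 genes (91.2%) above both other FEAT clones, beside 41.9% over all genes, and chromosome 14 had 0.30.

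FEAT-3 was the low clone on chromosome 19 (-0.36, 231 of 285 genes below both others, or 81.1%, beside 46.7% over all genes). That comparison is against a mean that holds the high FEAT-20. Taken in pairs, the median difference of FEAT-20 from FEAT-15 was 0.37, and that of FEAT-3 from FEAT-15 was -0.18. FEAT-3 was the dimmest array, and its scaled values were somewhat low in general: the median of its 25-gene windows was -0.07. Quantile normalization, which removes that offset, gave 0.36 for FEAT-20 against FEAT-15 and -0.11 for FEAT-3 against FEAT-15. The medians of ΔccdB-1 and ΔccdB-3 lay between -0.12 and 0.18 on all 20 chromosomes, and their positive values on chromosome 17 come from a mean that holds ΔccdB-2.

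**Figure D4:**
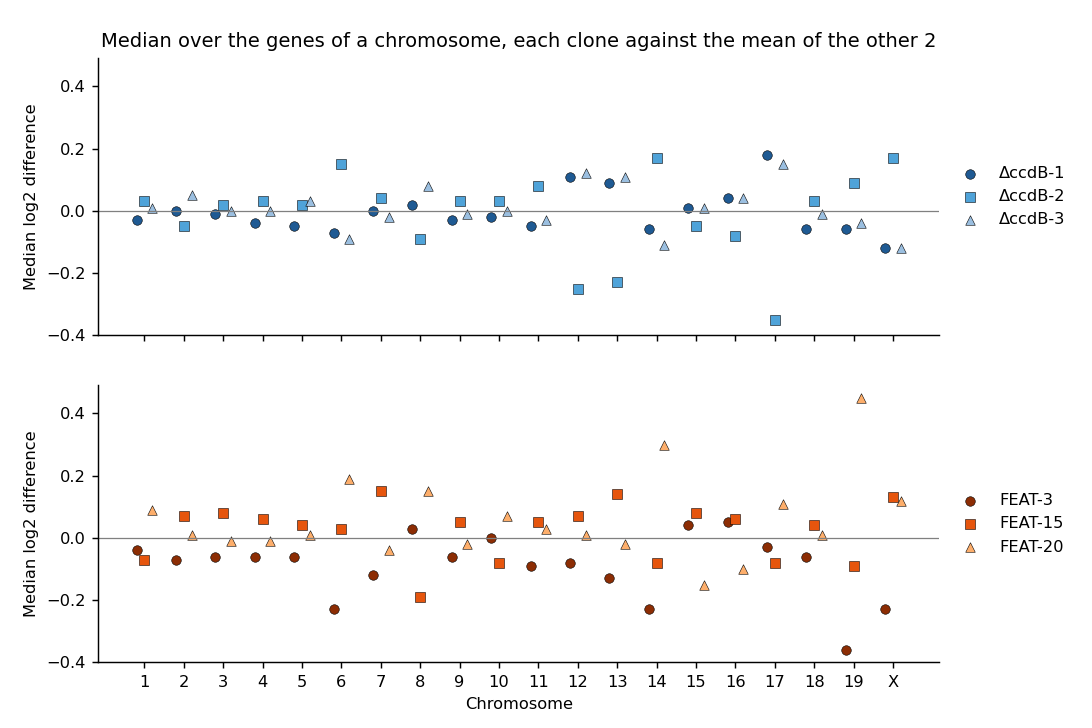
Median log2 difference of each clone from the mean of the other 2 clones of its group (vertical axis) over the kept genes of each chromosome (horizontal axis), control clones above and FEAT clones below. ΔccdB-2 is lowest on chromosomes 12, 13 and 17, and on chromosome 19 FEAT-20 stands at 0.45, FEAT-15 at -0.09 and FEAT-3 at -0.36.

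The chromosome shifts and the variable genes overlapped. All 11 variable control genes of chromosome 17 (3.10% of its 355 genes) were lowest in ΔccdB-2. Among them were Cyp1b1, Plin4, a lipid droplet coat protein gene (435, 167 and 412), and Tnxb, a tenascin gene (938, 470 and 1005). Notch4 was another, but there ΔccdB-2 (389) lay near ΔccdB-1 (477), and ΔccdB-3 (1102) stood apart. When each chromosome was centred on each array, 3 of the 11 kept a range of 1 or more. Of the 11 variable FEAT genes on chromosome 19 (3.86% of 285), FEAT-20 was highest in 10, and 1 kept a range of 1 or more after centring. Examples were Tctn3, a gene of the primary cilium (578, 694 and 1277), and Tle4, a transcriptional corepressor gene (966, 1093 and 1957). Plcb3, a phospholipase C gene, was another (570, 681 and 1221). The other kept probe of Tctn3 also put FEAT-20 highest, but with a range of 0.51, under the threshold. The exception in direction was Vldlr, which was lowest in FEAT-20.

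Chromosome X held the highest share of variable genes, 11 of 197 (5.58%) among control clones and 12 of 197 (6.09%) among FEAT clones. ΔccdB-2 was the highest clone in all 11 of the control genes, and FEAT-3 the lowest in 10 of the 12 FEAT genes. The genes were not spread evenly along the chromosome. In ΔccdB-2 the 30 kept genes from Ids to Tbl1x had a median of 0.67 (1.59-fold), with 27 above both other control clones. A further run of 25 kept genes, from Gm15107 to Trappc2, had a median of 0.47 (1.39-fold), with 23 above both, while the other 142 genes of the chromosome had a median of 0.08. Emd, which encodes the nuclear membrane protein emerin and lies in the first of these stretches, read 1068, 2177 and 880 in the control clones and 1116, 1105 and 1079 in the FEAT clones. The other variable control genes there were Eola1, Vma21, Fam50a, Mpp1 and Vbp1.

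In FEAT-3 a longer stretch of the X chromosome was low. It overlapped the Gm15107 to Trappc2 run that was high in ΔccdB-2, sharing the genes from Gm15107 to Piga. The 84 kept genes from Yipf6 to Piga had a median of -0.57 (0.67-fold), with 80 (95.2%) below both other FEAT clones, and the other 113 genes had a median of -0.08. Hmgn5, a nucleosome-binding protein gene of that stretch, read 935, 1423 and 1886 in FEAT-3, FEAT-15 and FEAT-20, and Armcx1, an armadillo repeat gene, 576, 866 and 1228. The ends of these stretches were set after the values were seen. Arhgap6 and Rhox5 did not share their differences with their neighbours: in ΔccdB-2 Arhgap6 differed by 4.99 and the nearest kept genes Prps2 and Hccs by 0.31 and 0.17, and in FEAT-3 Rhox5 differed by -3.95 and the nearest kept genes Rnf113a1 and Zbtb33 by -0.08 and -0.23.

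**Figure D5:**
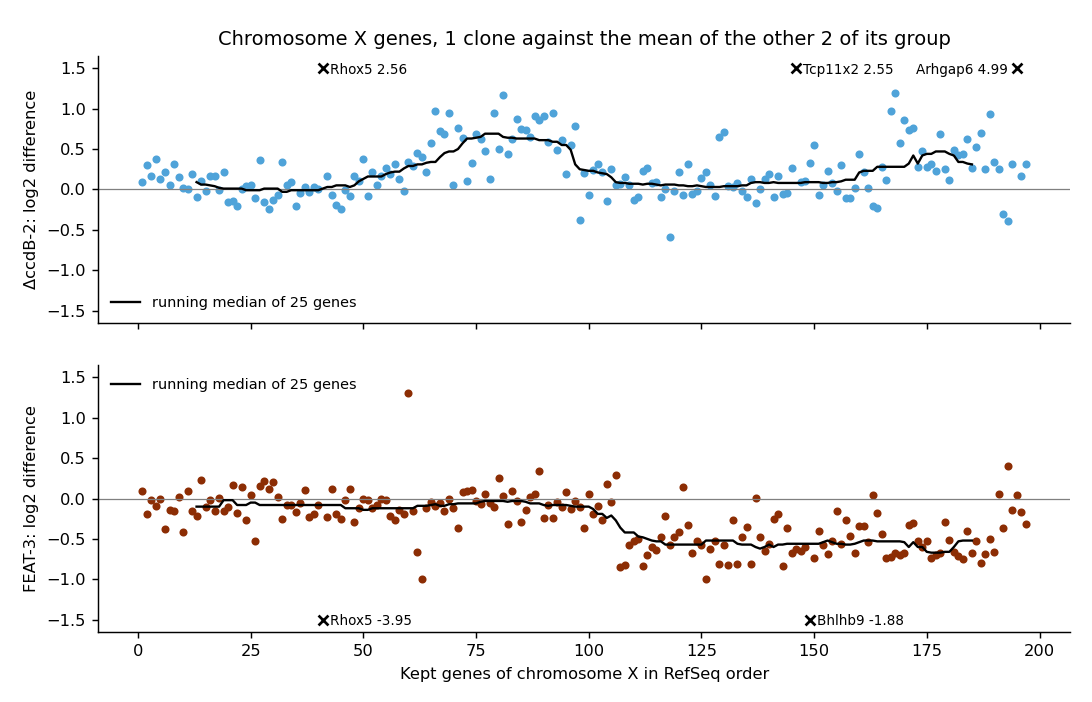
Log2 difference of ΔccdB-2 (top) and FEAT-3 (bottom) from the mean of the other 2 clones of the group for 197 kept genes of chromosome X in RefSeq order, 1 point per gene, with the running median of 25 genes as a line. Crosses mark genes beyond 1.5, drawn at the edge with their value, and the line rises in a pair of stretches of ΔccdB-2 and stays low over a longer stretch of FEAT-3.

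Shorter runs of neighbouring genes also stood apart. In windows of 15 kept genes the highest median of ΔccdB-2 was 0.79 (1.73-fold), on chromosome 5 from Rbm48 to Abcb1b, with 14 of the 15 genes above both other control clones. Abcb1b, a multidrug efflux transporter gene, read 1461, 3777 and 2055 in the control clones and 3920, 3097 and 4136 in the FEAT clones. Steap1, a metalloreductase family gene, read 1713, 3834 and 1766, then 3738, 4341 and 3094, and Gatad1, a zinc finger gene, 1946, 3806 and 2184, then 3052, 3517 and 3368. In all of these ΔccdB-2 was within or near the span of the FEAT clones, and ΔccdB-1 and ΔccdB-3 were below it. Cyp51, a sterol synthesis gene in the same run, did not follow (7037, 6399 and 5041). The median of the whole of chromosome 5 in ΔccdB-2 was 0.02.

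Variable genes were next to each other in few cases. Among control clones 8 of 108 placed variable genes (7.41%) had a variable kept gene beside them, against 2.99% of all kept genes, and among FEAT clones 6 of 123 (4.88%) against 3.43%. The control pairs were Gsta1 with Gsta2, Lyz1 with Lyz2, Prl2c2 with Prl2c3 and the X-linked genes Gm15107 with Ott. The FEAT pairs were Ccl2 with Ccl7, Prl2c2 with Prl2c3 and Tctn3 with Frat2. The first 3 control pairs are close relatives by sequence.

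Promoters of variable control genes held fewer CpGs than those of all kept genes. In the 300 bases from 250 before to 50 after the RefSeq start (GRCm38.p6), the median number of CpGs was 13 for control genes, over 117 windows of 88 of the 109 genes, and 22 for all kept genes. Windows with 5 or fewer CpGs made up 26.5% and 8.87%. The letters TATAAA on either strand were found in 5.98% of control windows, 6.84% of windows of all kept genes and 13.6% of all windows in the table. The sets were not matched for intensity, and dimmer genes held a larger share of variable genes. For the FEAT genes the check is void, since windows were matched for 73.4% of them, under the 80% that was required. Nothing is therefore said about a difference in CpGs between the control and FEAT genes. A match of letters is a description and does not show that a factor binds.

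At the other end, some genes hardly differed between any clones of a group on their brightest probe. Cct2, a chaperonin subunit gene, read 216, 211 and 212 in the control clones and 212, 215 and 215 in the FEAT clones. Pfn1, the gene of the actin monomer binding protein profilin, read 13396, 13076 and 13530, then 12265, 12535 and 12140, and Tra2b, a splicing regulator gene, 1558, 1608 and 1564, then 1560, 1612 and 1600. Diaph1, which encodes a formin, read 443, 447 and 432, then 413, 416 and 412. Ttl, the gene of tubulin tyrosine ligase, read 624, 645 and 623, then 755, 778 and 774. Other kept probes of Pfn1, Diaph1 and Ttl were less steady, with ranges of 0.22, 0.16 and 0.35 among control clones. Among FEAT clones those probes had ranges of 0.26, 0.32 and 0.19. The medians over all genes were 0.30 and 0.27. The mouse counterpart of FEAT, Eef1aknmt, read 567, 739 and 756 in the control clones (range 0.41) and 751, 650 and 721 in the FEAT clones (0.21). Its other kept probes had ranges of 0.23 and 0.54 among control clones and 0.52 and 0.22 among FEAT clones. Whether its probes read the human insert is not known, so these values do not measure the transgene in the FEAT clones.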

How the data were processed

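Each of the 6 NIH3T3 clones gave total RNA (RNeasy) for 1 Cy3-labelled Illumina mouse array, per the labels' protocols. The submitters' processing notes name BeadStudio without a version. What the authors deposited per sample were linear intensities of probes that still hold the background, judged from the values. The authors' value table held the same intensities times 1 factor per array (0.925 to 1.10), which set each mean to 680, and was used here. Slide, detection p and bead numbers were not used here, and the number of arrays limits the precision.

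Log2 values were taken with Python 3.11.15, pandas 2.3.3 and numpy 2.4.6. Genes were named through the platform annotation, with 10384 of the 11817 kept probes having 1 gene, 1429 unnamed here and 4 with several genes, and placed through RefSeq (GRCm38.p6). The members, the lists and the naming rule were chosen with earlier results of these data known. The genes named were drawn from the 15 widest ranges per group, the 5 genes most above and below per clone, the widest members of each list, genes near the threshold, the 10 genes variable in both groups with the largest smaller range and the 5 steadiest genes, and other genes named in passing were chosen after their values were seen. A background limit was set per array at the mode of log2 values plus 3 SDs of the values below it. "At least" folds divide the bright clone by the higher of the lowest clone's value and its limit. Alternatives were quantile normalization and normexp (limma 3.58.1, R 4.3.3, offset 16), unscaled values, other filters, thresholds and probe rules, and leaving out each clone. The steps were tested on simulated data with 200 changed genes. The simulated spread between clones was smaller than that of the arrays, so the test gives no rate of false calls for these data. Groups came from the sample titles.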

Additional observations from a re-analysis of the deposited data

How the results depend on the processing

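The counts depend on scaling and on single clones. On unscaled values the count of variable FEAT genes was 229 in place of 124, and on probes the control count was 178 in place of 109. With a range of 1.5 the counts were 31 among control clones, 42 among FEAT clones and 9 in both. Leaving out each clone in turn, which leaves a range over 2 clones, gave 13 to 81 control genes, 58 to 66 FEAT genes and 9 to 25 in both. The low end, 13, is without ΔccdB-2. Counts per clone moved on unscaled values to 5 above for ΔccdB-1, 2 below for ΔccdB-3, 15 below for FEAT-3, 1 below for FEAT-15 and 12 below for FEAT-20. With normexp they moved to 25 below for ΔccdB-2, 2 below for ΔccdB-3 and 4 below for FEAT-15, and with the mean of all probes to 0 below for ΔccdB-3 and 1 below for FEAT-15. The median range among control clones was 0.32 on unscaled values, 0.32 with normexp, 0.29 with the mean of probes and 0.17 to 0.18 with a clone left out. Among FEAT clones it was 0.26 with quantile normalization, 0.42 on unscaled values, 0.26 with the mean of probes and 0.15 to 0.17 with a clone left out. On unscaled values chromosome 14 in FEAT-20 stood at 0.45, chromosome 19 at 0.60 in FEAT-20 and -0.59 in FEAT-3, and chromosome X at -0.46 in FEAT-3. Leaving out another clone gave 0.37 to 0.54 for chromosome 19 in FEAT-20 and -0.54 to -0.18 in FEAT-3. The cause of these moves was not tested, apart from those set by the construction (fewer clones, a stricter threshold). No chromosome median named here as a shift changed sign. The small median of FEAT-15 on chromosome 19 (-0.09) did: with FEAT-20 left out, FEAT-3 stood at -0.18 against FEAT-15.

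With quantile normalization 108 of the 109 control genes and 107 of the 124 FEAT genes kept a range of 1 or more. Centring each chromosome on each array, an alternative chosen after seeing the data, left 88 of 109 and 96 of 124. The 79 ranges of genes named by rank moved by less than the SD between clones under each of the 4 scaling and probe alternatives. That SD is wide beside a range of 3 clones, so large moves can pass. With normexp the control range of Osbpl6 went from 2.11 to 3.20, and that of Snurf from 3.91 to 5.37. All 79 fell by more than the SD when the clone that set the range was left out. With 3 clones no other result was possible, so it says nothing about these genes. Of the counts of variable genes per list, 35 changed by over 1.5 times at the lowest value with a clone left out and 12 did not. List counts also changed by that much in 11 cases with normexp, 11 on unscaled values, 5 with quantile normalization and 2 with the mean of probes. Counts per clone were not run with a clone left out, since they need 3 clones. Intensities still hold background, so ratios of dim genes are too small, and a gene below the filter in all clones but one can be missed. No paired analysis was possible because the groups share only the clone number 3, which names a clone and pairs nothing.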
